A study of Mus musculus with 4 samples.

Results

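The *Cyp2d* genes encode the 2D subfamily of the cytochromes P450. The 8 genes described here, *Cyp2d9*, *Cyp2d10*, *Cyp2d11*, *Cyp2d12*, *Cyp2d22*, *Cyp2d26*, *Cyp2d34* and *Cyp2d40*, were taken by symbol from the mm9 annotation, out of 22367 protein-coding genes. All 8 lie on chromosome 15 in a stretch of 424 kb, from the first base of *Cyp2d22* to the last base of *Cyp2d26* (chr15:82200958-82624675), which is called the cluster below. The rule uses their symbols only.

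Cytochromes P450 are heme enzymes of the endoplasmic reticulum that add an oxygen atom to drugs, steroids, fatty acids and other lipids, with electrons passed on from P450 oxidoreductase and cytochrome b5. The 2D enzymes are abundant in hepatocytes and include the human enzyme that clears many prescribed drugs. In the mouse the subfamily was expanded by tandem duplication, and some members, *Cyp2d9* among them, are known as steroid hydroxylases with higher levels in male liver.

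The data were DamID profiles of primary hepatocytes, in which a bacterial Dam methylase fused to LaminB1 methylates GATC sites that touch the nuclear lamina, and a Dam-only control records how open each site is to the enzyme. The 4 libraries were Dam-LaminB1 and Dam only in WT mice and in mice with *Tm7sf2*, a sterol reductase and nuclear envelope protein also called NET47, knocked out (KO). The DNA of 4 mice, 12 to 16 weeks old, was pooled for each, and the hepatocytes had been exposed to lentivirus for 24 h in culture, so lamina contacts were made in plated cells that carried a viral construct. From each library pair the authors called lamina-associated domains (LADs), regions at the nuclear envelope (NE), and kept the stretches of at least 10 kb found in the LADs of 1 genotype only as differential regions (DRs).

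With 1 pooled pair per genotype there was no replicate, so no difference below has a test or a spread between animals. The lists hold positions only: the signal and read depth behind each LAD are unknown from them, and neither the deletion of *Tm7sf2* nor the identity of the cells can be checked in them. The paper reports fewer usable reads for KO than for WT, so the genotypes were not read equally deep. The part of depth in the differences between the lists was not tested. The lists name 8107 LADs in WT and 16076 in KO, which cover 55.4% and 56.1% of the genome. Gene spans were put in classes, where meeting a list by 1 base was enough: PI (at the periphery in WT, interior in KO) when a gene met a WT-only DR, IP for a KO-only DR, AMB for both, PP when it met a LAD in both genotypes and no DR, and II otherwise.

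DamID reads a genome at its GATC sites, and all 4 LAD borders of the cluster fell on one. The sequences just before the 8 annotated transcription starts are shown first, since they show both where the assay can read these genes and how alike the copies are. Each line holds the 100 bases before the start, 5′ to 3′ in the direction of the gene (mm9), with GATC in capitals.
Cyp2d22, chr15:82210691-82210790, minus strand: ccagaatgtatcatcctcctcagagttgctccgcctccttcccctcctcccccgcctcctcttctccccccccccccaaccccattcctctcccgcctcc
Cyp2d11, chr15:82224453-82224552, minus strand: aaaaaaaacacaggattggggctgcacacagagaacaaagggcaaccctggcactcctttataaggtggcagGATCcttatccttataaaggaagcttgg
Cyp2d10, chr15:82237625-82237724, minus strand: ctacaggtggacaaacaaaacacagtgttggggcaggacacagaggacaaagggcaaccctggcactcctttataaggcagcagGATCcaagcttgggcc
Cyp2d9, chr15:82282707-82282806, plus strand: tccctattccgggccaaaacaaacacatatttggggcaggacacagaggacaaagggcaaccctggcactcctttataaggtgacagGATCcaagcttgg
Cyp2d12, chr15:82385438-82385537, plus strand: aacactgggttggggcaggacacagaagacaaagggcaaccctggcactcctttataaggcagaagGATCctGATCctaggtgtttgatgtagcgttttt
Cyp2d34, chr15:82451338-82451437, minus strand: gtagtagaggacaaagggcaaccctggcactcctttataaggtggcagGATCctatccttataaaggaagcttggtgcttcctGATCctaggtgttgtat
Cyp2d40, chr15:82594614-82594713, minus strand: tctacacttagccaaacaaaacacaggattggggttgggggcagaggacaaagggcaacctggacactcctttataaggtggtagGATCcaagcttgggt
Cyp2d26, chr15:82624676-82624775, minus strand: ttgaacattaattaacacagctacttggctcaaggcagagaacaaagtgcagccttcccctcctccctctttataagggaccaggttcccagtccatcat

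A GATC stood in 6 of the 8 windows, against 17.0% of the windows before all 22367 protein-coding starts. The first base of the site lay 28 bases before the start of *Cyp2d11*, 16 before *Cyp2d10*, 13 before *Cyp2d9* and 15 before *Cyp2d40*. *Cyp2d12* had sites at 34 and 28 bases and *Cyp2d34* at 52 and 17 bases, while *Cyp2d22* and *Cyp2d26* had none in the window. The letters TATAAGG, a motif picked after the sequences had been seen and searched on the strand of the gene only, were in 7 of the 8 windows, all but that of *Cyp2d22*, and in 0.541% of all windows. The motif began 26 to 29 bases before the start in *Cyp2d9*, *Cyp2d10*, *Cyp2d26* and *Cyp2d40*, 41 before *Cyp2d11*, 47 before *Cyp2d12* and 65 before *Cyp2d34*. In the 6 windows with both words the first GATC began 13 bases after the start of TATAAGG. *Cyp2d22* had a C-rich window with neither word. The copies are related by descent, so a shared word in 7 of them is not 7 separate observations.

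GATC sites lay close to all 8 starts. The nearest GATC was 5 to 25 bases from the start in 7 genes and 148 bases away in *Cyp2d22*. Within the spans, the number of sites ran from 9 in *Cyp2d10* and *Cyp2d40* to 20 in *Cyp2d34*. The cluster as a whole held 1274 GATC sites, 1 per 333 bases, denser than the genome at 1 per 399 and than the 500 kb on its low-coordinate side (1 per 407) and high-coordinate side (1 per 428). It was within the range of other P450 clusters, with 1 per 317 bases in the *Cyp4a*, 321 in the *Cyp2c*, 330 in the *Cyp3a* and 336 in the *Cyp2a* and *Cyp2b* cluster.

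All 8 *Cyp2d* genes were II. None overlapped a LAD in WT or KO by a single base, and none of their 70 exons did. By comparison, 30.4% of all protein-coding genes met a WT LAD and 41.7% a KO LAD, 8.39% met a WT-only DR and 20.1% a KO-only DR. Class II held 56.6% of all protein-coding genes. It held 69.5% of those with a span within the range of the members (4.14 to 9.73 kb) and 73.8% of those on chromosome 15, so class II was common among genes of this length and among genes of this chromosome. The 8 genes are neighbours, and their shared class is 1 observation on 1 stretch of chromosome rather than 8.

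The cluster was not free of LADs, however. Each genotype had 1 short LAD in it, and both lay in the 98.3 kb between *Cyp2d9* and *Cyp2d12*, the second longest gap between neighbouring members. The WT LAD spanned 16.6 kb (chr15:82354556-82371205) and the KO LAD 14.8 kb (chr15:82345136-82359902), which put 3.93% of the cluster in WT LADs and 3.49% in KO LADs. Both LADs were under 20 kb. Counting only LADs of at least 20 kb left none in the cluster, and the nearest was then 3641 kb from a member in WT and 1198 kb in KO. The other gaps, from 8.82 kb between *Cyp2d11* and *Cyp2d10* to 139 kb between *Cyp2d34* and *Cyp2d40*, held no LAD in either genotype. The map of the cluster shows the members on both sides of this stretch.

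**Figure D1:**
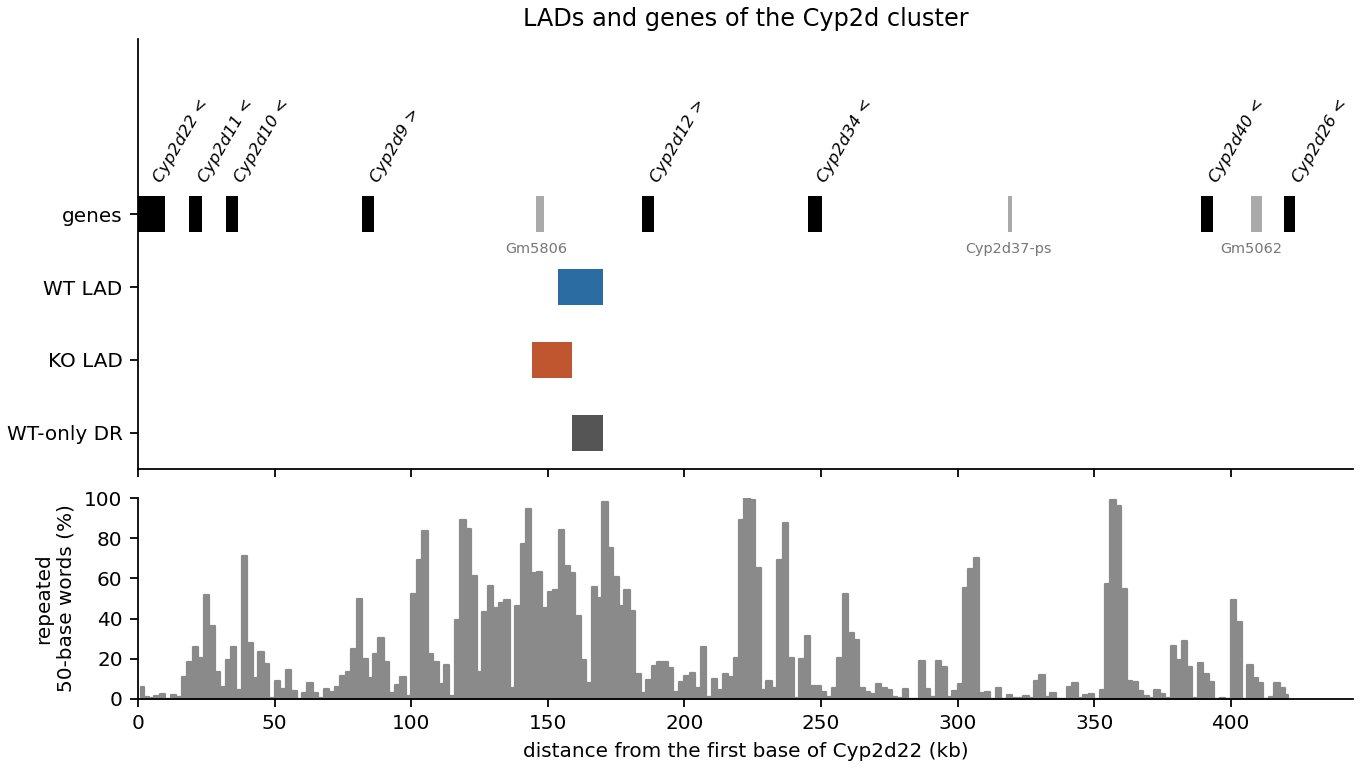
Map of the Cyp2d cluster by distance from the first base of Cyp2d22 (kb). The upper panel has the members in black (> plus strand, < minus strand), other protein-coding annotations in grey, and the LAD of each genotype and the WT-only DR as bars, all between Cyp2d9 and Cyp2d12. The lower panel gives the percent of 50-base words in each 2 kb window that occur more than once in the genome. This percent is high in and around the LADs and at a few other places, and highest (100%) at 223 kb, away from the LADs.

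The members fell on both sides of the LADs, and their distances to the lamina domain follow their order along the chromosome. *Cyp2d22* (chr15:82200958-82210690, minus strand, 10 exons), often treated as the mouse gene closest to human CYP2D6, was 144 kb from the nearest LAD in WT and 134 kb in KO. *Cyp2d11* (chr15:82219584-82224452, minus strand) was 130 kb away in WT and 121 kb in KO. *Cyp2d10* (chr15:82233276-82237624, minus strand) was 117 kb away in WT and 108 kb in KO. For these 3 genes and *Cyp2d9* the KO LAD was the nearer one.

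*Cyp2d9* (chr15:82282807-82287257, plus strand), the male-enriched steroid hydroxylase, was the last member on the low side. It lay 67.3 kb from the WT LAD and 57.9 kb from the KO LAD, and its start, which faces away, 71.7 kb and 62.3 kb. *Cyp2d12* (chr15:82385538-82389843, plus strand), the first member on the high side, was the closest of all: 14.3 kb from the WT LAD and 25.6 kb from the KO LAD, measured from its start. It was the only member within 50 kb of a LAD in either genotype.

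Beyond *Cyp2d12* the distances grew again. *Cyp2d34* (chr15:82446395-82451337, minus strand) was 75.2 kb from the nearest LAD in WT and 86.5 kb in KO. *Cyp2d40* (chr15:82590265-82594613, minus strand, 6 annotated exons against 9 or 10 in the others) was 219 kb away in WT and 230 kb in KO. *Cyp2d26* (chr15:82620537-82624675, minus strand) was the farthest, 249 kb off in WT and 261 kb off in KO.

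Every distance changed between genotypes by 1 of 2 amounts, because all 8 genes are measured to the same LAD of each genotype. The 4 members on the low side were 9.42 kb nearer to a LAD in KO, and the 4 on the high side 11.3 kb farther. The median over the members was 124 kb in WT and 114 kb in KO. Protein-coding genes outside LADs had a median of 307 kb in WT (quartiles 76.0 and 813 kb, 15562 genes) and 110 kb in KO (quartiles 32.1 and 294 kb, 13037 genes). The members' median was thus below the WT median and close to the KO median, and inside the quartiles of both.

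**Figure D2:**
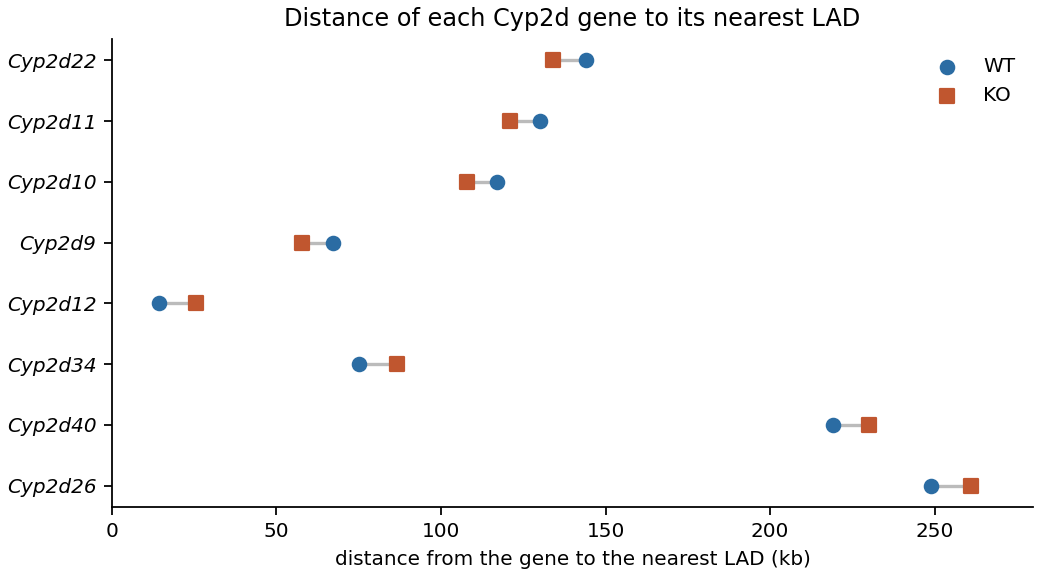
Distance from each Cyp2d gene to its nearest LAD (kb, horizontal axis) in WT (circles) and KO (squares), with the genes in chromosome order from top to bottom. The 4 upper genes were 9.42 kb nearer in KO and the 4 lower genes 11.3 kb farther, and Cyp2d12 was the closest in both.

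The members were then placed against the DRs. The WT-only DR in the cluster was the nearest one to every member, at 14.3 kb from *Cyp2d12* and 249 kb from *Cyp2d26*. When each gene was classed by a 100 kb window around its midpoint, *Cyp2d12* was PI, as were 9.71% of all protein-coding genes. The other 7 members stayed II, a class that held 42.2% of all protein-coding genes with that window. No KO-only DR lay in the cluster, and the members were between 1.20 Mb (*Cyp2d26*) and 1.61 Mb (*Cyp2d22*) from the nearest one.

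The borders of the LADs were shifted against each other rather than 1 LAD lying inside the other. In both genotypes 5347 bp were in a LAD (chr15:82354556-82359902, 14 GATC sites). The 11.3 kb above it were in the WT LAD only (chr15:82359903-82371205, 25 GATC sites) and form a deposited WT-only DR with no annotated gene. The 9.42 kb below it were in the KO LAD only (chr15:82345136-82354555, 35 GATC sites) and are not a DR, since they fall short of 10 kb. That stretch holds all of *Gm5806*, a predicted gene of 2 exons (chr15:82346705-82349711) that lay 4.84 kb outside the WT LAD. *Gm5806* was II by the DRs and would be IP if differences of any length were counted. Such short differences are common: 36.6% of the 12290 WT-only stretches of any length and 28.7% of the 11508 KO-only stretches were under 10 kb.

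The LADs of the cluster stood far from any other. In WT the next LAD on the low side was 8.20 Mb away (chr15:74136116-74154862, 192 kb from *Bai1*) and on the high side 1.24 Mb (chr15:83615227-83628455, in *Mpped1*). In KO the neighbours were 3.01 Mb away on the low side (chr15:79318722-79332658, in *Kcnj4*) and 1.46 Mb on the high side (chr15:83822578-83850342, in *Efcab6*). Of the 9.46 Mb between the flanking WT LADs, 5347 bp, all in the cluster, were in LADs of both genotypes. No other bases there could be, since that stretch by its definition holds no further WT LAD. Of the 8065 WT LADs with a neighbour on each side, no other had a low-side and a high-side gap each at least as long as here. The cut-offs were this LAD's own gaps, and gaps in the reverse order were not counted. Of the same LADs, 22 (0.273%) had both gaps of at least 1 Mb. Of 16034 such KO LADs, no other passed the same count with the gaps of the KO LAD, and 16 (0.0998%) had both gaps of at least 1 Mb. Both LADs of the cluster were short, as 20.3% of WT LADs and 15.2% of KO LADs were no longer.

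Much of the LAD stretch is repeated sequence. Words of 50 bases were counted over both strands of the genome to show where short reads cannot be placed at a single position (the read length is not given in the sources used here). Of such words in the cluster, 22.2% occurred more than once, against 11.4% over the genome (every 1000th base), 4.95% in the 500 kb on the low side and 5.97% on the high side. In the 26070 bp that are in the LAD of either genotype the share was 51.4%. It was 73.2% in the part shared by both genotypes, 54.2% in the KO-only part and 38.7% in the WT-only part. With 100-base words the shares were 11.6% for the cluster and 26.0% for the LAD stretch. They were then 6.56% over the genome, 1.63% in the 500 kb on the low side and 2.41% on the high side.

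The genes themselves were less repeated than the LAD stretch. The share of repeated 50-base words was 22.7% in *Cyp2d11*, 22.4% in *Cyp2d10*, 15.0% in *Cyp2d9*, 12.6% in *Cyp2d40*, 8.46% in *Cyp2d34*, 8.08% in *Cyp2d12*, 6.16% in *Cyp2d26* and 1.99% in *Cyp2d22*. Over 21 pairs of the 7 genes with a full-length coding sequence, identity ran from 78.3% to 94.7% with a median of 82.3%. The closest pairs were *Cyp2d11* with *Cyp2d10* (94.7%), *Cyp2d11* with *Cyp2d9* (93.4%) and *Cyp2d10* with *Cyp2d9* (92.5%), the same 3 genes that had the highest shares of repeated words. *Cyp2d22* was the most distant, at 78.3% to 79.8% from each of the others. The coding sequences were 1503 to 1515 bases long, while that of *Cyp2d40* is annotated with 1017 bases and was left out.

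The LADs also sit inside an inverted repeat. A pair of arms of 7.85 kb each, chr15:82338835-82346684 and chr15:82369656-82377504, face each other across 23.0 kb and are identical in 98.6% of aligned columns (108 differences in 7868). Shorter inner arms of 2.81 kb each (96.9% identical) and outer arms of 7.06 and 6.82 kb (93.9% identical) lie inward and outward of them. The arms overlap at their ends on the high side but are separated by breaks on the low side. *Gm5806* lies in the break between the low main arm and the low inner arm. The KO LAD began in the low main arm and the WT LAD ended in the high main arm.

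The 4 border sites are shown to place them against this repeat. The KO LAD start and the WT LAD end lie in its main arms. The WT LAD start and the KO LAD end lie between the inner arms, outside the repeat itself. Each line holds 30 bases on either side of the GATC at the border, in capitals (mm9); the WT LAD end is read on the minus strand so that it can be set beside the KO LAD start.
KO LAD start, chr15:82345103-82345166, plus strand: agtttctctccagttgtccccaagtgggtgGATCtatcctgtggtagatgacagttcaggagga
WT LAD end, chr15:82371173-82371236, minus strand: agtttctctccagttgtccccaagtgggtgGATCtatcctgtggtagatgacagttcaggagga
WT LAD start, chr15:82354523-82354586, plus strand: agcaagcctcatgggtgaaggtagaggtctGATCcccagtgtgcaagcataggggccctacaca
KO LAD end, chr15:82359870-82359933, plus strand: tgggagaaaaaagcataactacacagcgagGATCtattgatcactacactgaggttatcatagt

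The KO LAD start and the WT LAD end are mirror copies of 1 site. None of the 64 bases shown for them differ. All 47 words of 50 bases that contain the KO LAD start site occurred exactly 2 times in the genome, as did all 47 at the WT LAD end. A 50-base word that begins or ends with either site thus matches the other site equally well. The method cuts at GATC, so a read would lie on 1 side of the site rather than across it. How reads were placed at these sites is unknown from the lists. The sites at the inner borders were in sequence of far higher copy number: 592 to 780 copies per word at the WT LAD start and 364 to 458 at the KO LAD end. Of all LAD borders, the 50-base word centered on the border occurred more than once in 13.5% of 16036 WT borders and 11.6% of 31993 KO borders, against 4 of 4 here. These 4 lie in 1 stretch, and the KO LAD start and the WT LAD end are copies of each other. They are therefore not 4 separate observations. The part of repeated sequence in the position of these LADs, or in the shift between WT and KO, was not tested, as it would need the reads.

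**Figure D3:**
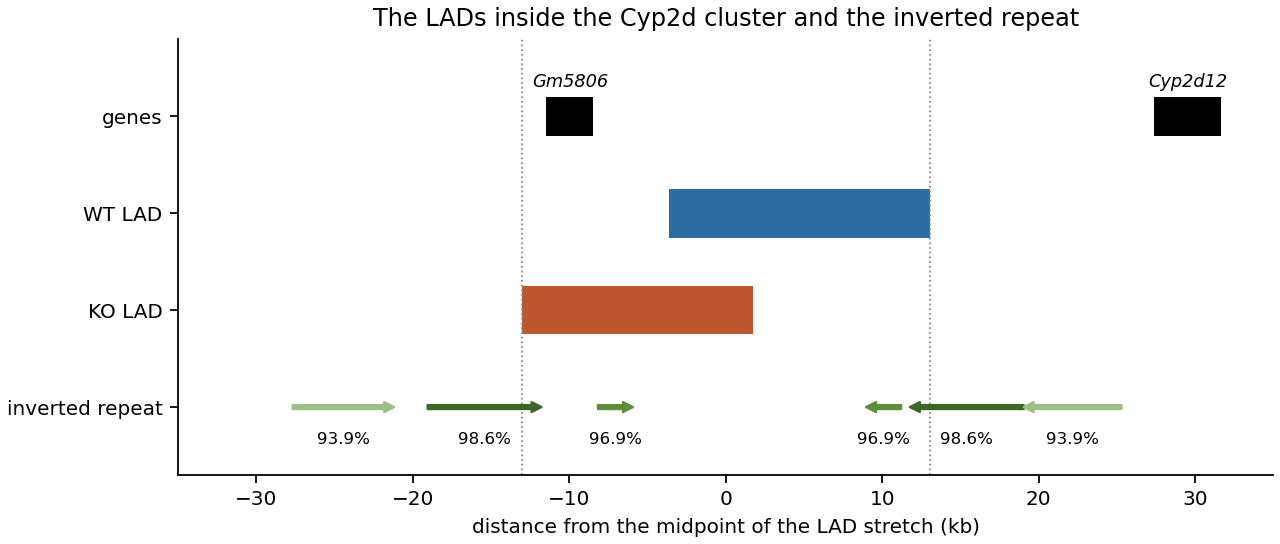
The LAD stretch of the cluster by distance from its midpoint (kb), with genes, the LAD of each genotype, and the arms of the inverted repeat as arrows that point inward, each with its percent of identical columns. Dotted lines mark the KO LAD start and the WT LAD end, which fall at mirror positions in the main arms.

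Among the other annotated genes of the cluster, none was in a DR. Besides *Gm5806* these were *Cyp2d37-ps* (chr15:82519564-82520929), whose name marks it as a pseudogene, *Gm5062* (chr15:82608361-82612540, listed in a later RefSeq table as a *Cyp2d* pseudogene) and *AC113593.1*, annotated as a miRNA gene. *Gm5806* aside, all lay at least 106 kb from a LAD in both genotypes. All 23 protein-coding genes of the 500 kb on the low side and all 7 on the high side were II, with no LAD in either flank. Over the whole of chromosome 15, class II held 73.8% of protein-coding genes. These genes are neighbours on the same LAD-free stretches, so their classes are not separate observations. The nearest were *Ndufa6*, a subunit of respiratory complex I, 16.2 kb from *Cyp2d22*, and the transcription regulator gene *Tcf20*, 14.4 kb from *Cyp2d26*. Other near genes on the low side were *1500032L24Rik*, *Fam109b* and *Wbp2nl*, and on the high side *Nfam1*, *Serhl*, *Rrp7a* and *Poldip3*. Base composition of the cluster (44.2% GC) was below that of either flank (48.5% each).

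The other P450 clusters measured (*Cyp2c*, *Cyp3a*, *Cyp2a* and *Cyp2b*, and *Cyp4a*) held more LAD in these lists, a difference that has no test. Further P450 clusters of the mouse were not measured. For their PI counts, 8.39% of all protein-coding genes met a WT-only DR, and genes of a cluster share their LADs. The *Cyp2c* cluster was 74.9% LAD in WT and 33.2% in KO, and 12 of its 14 genes were PI, 1 IP and 1 PP. The *Cyp3a* cluster was 89.2% LAD in WT and 33.1% in KO, with 8 of 8 genes PI. The *Cyp2a* and *Cyp2b* cluster was 48.8% and 21.7% LAD, with 5 of its 9 *Cyp2a* and *Cyp2b* genes PI and 4 II. Genes of other subfamilies in that stretch, such as *Cyp2g1* (II), were not counted. The *Cyp4a* cluster was 64.7% and 59.9% LAD, with 3 of 6 genes PP, 2 PI and 1 II. These clusters had 28.2% to 34.2% of repeated 50-base words, more than the 22.2% of the *Cyp2d* cluster, and less GC, 39.0% to 41.5%. Of the 89 P450 genes outside the *Cyp2d* cluster, 38 (42.7%) were II, 30 PI, 10 PP, 9 IP and 2 AMB, against 56.6% in class II over all protein-coding genes.

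**Figure D4:**
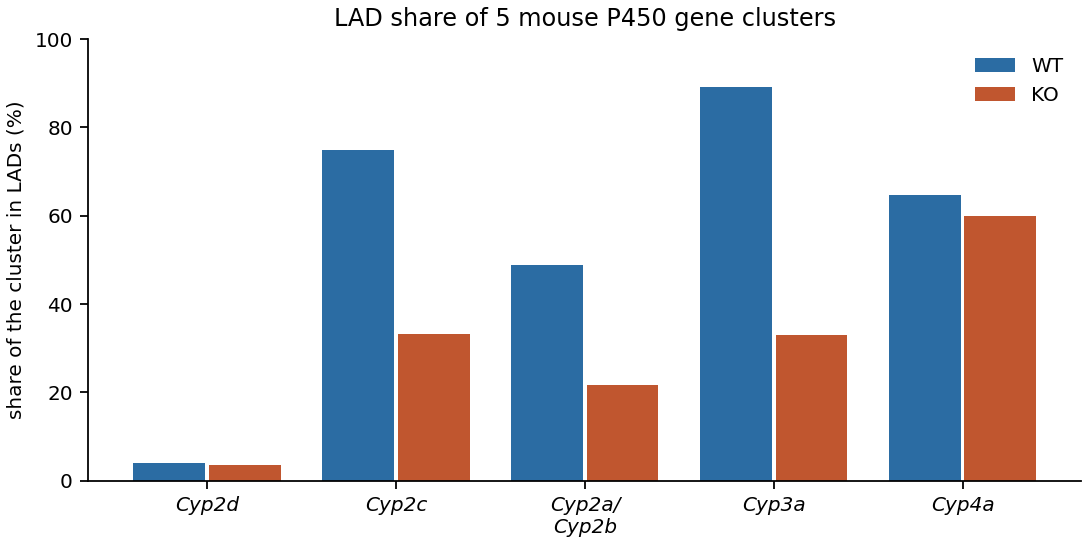
Share of each P450 gene cluster in LADs (percent of its bases, bars from 0) in WT and KO, 1 library pair per genotype and so without error bars. The Cyp2d cluster had 3.93% and 3.49%, and the other 4 clusters between 21.7% and 89.2%.

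The P450 genes whose distances to LADs were most like the members' medians, by the Euclidean distance of the log10 values in WT and KO, were *Cyp2s1* (0.0754; 147 kb from a LAD in WT, 117 kb in KO), *Cyp27b1* (0.152; 159 and 146 kb), *Cyp2g1* (0.243; 77.9 and 158 kb), *Cyp2a5* (0.260; 85.6 and 184 kb) and *Cyp4f40* (0.274; 70.3 and 84.4 kb). *Cyp27b1* encodes the enzyme that activates vitamin D, and *Cyp2a5* a coumarin hydroxylase of the liver. Of these 5, chosen for their distances, 3 (*Cyp2s1*, *Cyp2g1* and *Cyp2a5*) lie in or beside the *Cyp2a* and *Cyp2b* cluster of chromosome 7.

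Of 7 listed genes that supply the P450 enzymes with electrons and heme, all 7 were II, a class that held 56.6% of all protein-coding genes. *Por*, the P450 oxidoreductase that every microsomal P450 draws on, was 1612 kb from a LAD in WT and 80.1 kb in KO. *Alas1*, which makes the first committed precursor of heme, was 129 kb away in WT and 130 kb in KO. *Cyb5r3*, the reductase of cytochrome b5, lies on the same chromosome as the members, 612 kb from the nearest LAD in WT and 624 kb in KO. In KO that nearest LAD was the one between *Cyp2d9* and *Cyp2d12*.

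Of 12 listed regulators of hepatic P450 genes, 11 were II, a class that held 56.6% of all protein-coding genes, and 1 was IP. *Hnf4a*, a nuclear receptor that maintains the hepatocyte program, was 590 kb from a LAD in WT and 231 kb in KO. *Stat5b*, which carries the growth hormone signal behind sex-biased liver genes, was 540 and 558 kb away. *Onecut1*, a homeobox factor of hepatocytes, was the closest of the 11 to a KO LAD, at 4.13 kb against 21.1 kb in WT. *Cux2*, a repressor with higher levels in female liver, was the IP gene, with 7.18% of its span in a KO LAD and none in a WT LAD. As 20.1% of all protein-coding genes met a KO-only DR, 1 of 12 is not more than the background.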

How the data were processed

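DamID libraries of Dam-LaminB1 and Dam only from WT and *Tm7sf2*-KO hepatocytes were grouped by the sample labels. The authors mapped reads to mm9, took the log ratio of both constructs per *DpnI* fragment, and segmented it with DNAcopy to call LADs. The submitters' notes name BWA and limma without versions, and the read length is not given in the sources used here. The deposited files used are 2 LAD lists and 2 DR lists, whose values are start and end positions with no other measurement or score. Depth per LAD is therefore unknown. Subtracting the LAD lists and keeping stretches of at least 10 kb gave back all 7787 WT-only and 8208 KO-only deposited DRs.

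Spans, starts and exons (of the coding transcript with the longest summed exons) came from the GENCODE annotation of NCBIM37, the assembly of mm9, and no LAD ran past a chromosome end. Positions are 1-based. Interval steps ran in Python 3.11.15 and were tested on simulated data with 0 errors. Sequences were read with pysam 0.24.0, words of 50 bases (100 as an alternative) were counted over both strands, coding sequences and repeat arms were aligned with edlib, and arms were found from shared words of 20 bases. Figures used matplotlib 3.10.9.

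No test was made, as each genotype has 1 library pair. The genes named were the 8 members, every other annotated gene of the cluster, the 5 nearest protein-coding genes on each side (1 of them is not reported here), the gene nearest to each flanking LAD or DR, 7 electron donor and heme genes, 12 regulators, and the 5 P450 genes most like the members in distance. The members and lists were chosen with earlier results of these data known. Alternatives changed the overlap rule, the DR and LAD minimum length, joining of LADs, the borders of the cluster and the exons counted. A value was called changed when it moved by more than a factor of 1.5.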

Additional observations from a re-analysis of the deposited data

How the results depend on the processing

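No paired analysis was possible because each genotype has 1 library pair and no result comes from a test. The count of 8 members in class II was the same with at least 10% or 50% of the span in a DR, with starts only, with differences of any length, with LADs joined across gaps of up to 50 kb and with LADs of at least 20 kb. It was 7 with a window of 100 kb centered on the gene, where *Cyp2d12* was PI. With that window 42.2% of all protein-coding genes were II and 9.71% were PI. Counting only LADs of at least 20 kb changed the most: the share of the cluster in LADs became 0% in WT and 0% in KO, and the shortest distance from a member to a LAD became 3641 kb in WT (14.3 kb with all LADs) and 1198 kb in KO (25.6 kb with all LADs), since both LADs of the cluster are shorter than that. Joining LADs left the shares and distances as they were, and widening the cluster by 100 kb on each side gave 2.67% in WT and 2.37% in KO. No exon met a LAD with the exons of every transcript either. Words of 100 bases, an alternative chosen after seeing the data, lowered the repeated share to 11.6% for the cluster and 26.0% for the LAD stretch. The share over the genome was then 6.56%. The lists carry no signal, so how far each LAD stood above its threshold cannot be given.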
